A study of Mus musculus with 16 samples.

Results

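The 43 genes described here are known imprinted genes of the mouse, read in white and brown adipose tissue (WAT and BAT) of mice that lack the glucocorticoid receptor (GR) in adipose tissue and of their controls. Members were taken from published knowledge of imprinting, by gene, with earlier results of these data known. They were matched to array probes through the transcript accession that each probe carries. Of the 43 genes, 40 had a probe, with 68 probes among them, out of 19096 named genes on the array. A total of 39 members passed the filter on dim probes and were tested among 25107 features, which were 16677 named genes and 8430 unnamed probes. Mirg, Rtl1 and H19 had no matched probe and are not analysed here. Mkrn3 had 1 probe, which was well above background on 1 AdipoKO BAT array and 2 CTL WAT arrays and so was not tested.

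The study hybridised total RNA of female mice to 16 single-colour (Cy3) Agilent arrays in 4 groups of 4 arrays: WAT of mice with adipose-specific GR knockout (AdipoKO WAT), WAT of wild-type mice (CTL WAT), BAT of knockout mice (AdipoKO BAT) and BAT of wild-type mice (CTL BAT). No treatment is named in the labels, and the Cre driver, the age of the mice, the strain and the WAT depot are not given in the sources used here. The arrays of AdipoKO WAT 1 and 2 differed by less than the noise between spots and were counted as 1 sample, AdipoKO WAT 1-2, which left 15 samples. Each value below is a log2 level, that is, the log2 processed signal of a probe minus the 75th percentile of its array, so that a gene at that percentile has a level of 0. A difference is the mean log2 level of the group named first minus that of the other, and adjusted p-values are limma's, two-sided and Benjamini-Hochberg adjusted over all 25107 features, with a threshold of 0.05.

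Imprinted genes are transcribed mainly from the chromosome inherited from 1 parent, under differentially methylated control regions that often govern a cluster of neighbouring genes. Many of them act in growth and in fat: Dlk1 (Pref-1) restrains preadipocyte differentiation, Mest accompanies adipocyte enlargement, Grb10 restrains insulin receptor signalling, and Gnas encodes the G protein subunit that couples beta-adrenergic receptors to cyclic AMP. An array reads the sum of both alleles, so the values here are total transcript levels and say nothing of which allele was transcribed. In bulk tissue, fewer cells of a type and less RNA per cell cannot be told apart.

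Promoter windows of 300 bases, running from 250 bases before to 50 bases after the transcript start, were found for 35 of the 43 members in RefSeq (GRCm38.p6), 51 windows in all. The median member window held 13 CpG dinucleotides, against 7 over all 32851 windows, with a range of 0 to 48. The sequence AGAACA or its reverse complement TGTTCT, searched on both strands as an arm of the glucocorticoid response element, occurred in 9 of 51 member windows (17.6%), against 19% of all windows. The spaced palindrome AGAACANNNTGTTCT occurred in 0 member windows and in 3 of all windows (0.009%). A match is a description of these letters only. Windows are shown for the 2 members that passed the test in a knockout comparison, Rian and Magel2, and for Nnat, whose BAT groups did not overlap. They differ in CpG content, with 0 in Rian, 10 in Magel2 and 17 in Nnat, and the capitals mark CpG. Rian lies at chr12:109603695-109603994, plus strand, Magel2 at chr7:62376729-62377028, plus strand, and Nnat at chr2:157559828-157560127, plus strand.
Rian: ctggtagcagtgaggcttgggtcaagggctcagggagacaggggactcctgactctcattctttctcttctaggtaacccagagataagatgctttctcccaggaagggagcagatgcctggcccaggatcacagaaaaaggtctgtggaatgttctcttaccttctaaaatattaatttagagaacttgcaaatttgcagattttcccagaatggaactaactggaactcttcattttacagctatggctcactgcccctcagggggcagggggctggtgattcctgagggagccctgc
Magel2: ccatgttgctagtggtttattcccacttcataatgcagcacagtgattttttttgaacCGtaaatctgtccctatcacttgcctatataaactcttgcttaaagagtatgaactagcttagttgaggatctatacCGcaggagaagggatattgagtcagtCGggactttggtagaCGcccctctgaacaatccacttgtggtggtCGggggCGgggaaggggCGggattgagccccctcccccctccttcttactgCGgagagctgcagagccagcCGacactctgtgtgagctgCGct
Nnat: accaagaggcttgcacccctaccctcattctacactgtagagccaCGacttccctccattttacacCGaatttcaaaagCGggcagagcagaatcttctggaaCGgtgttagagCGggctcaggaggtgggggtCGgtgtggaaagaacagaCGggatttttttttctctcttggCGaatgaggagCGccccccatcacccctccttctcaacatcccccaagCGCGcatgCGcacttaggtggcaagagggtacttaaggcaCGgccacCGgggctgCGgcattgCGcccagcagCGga

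Nr3c1, the gene of GR itself, read 1.64, 1.36 and 1.58 in AdipoKO WAT, against 1.93, 2.56, 2.0 and 2.25 in CTL WAT. In BAT it read 1.3, 1.3, 1.45 and 1.76 in AdipoKO mice, against 2.33, 2.4, 2.53 and 2.7 in CTL mice. Every knockout sample was below every control sample of its depot, although neither difference passed the test (adjusted p = 0.21 in WAT and 0.0814 in BAT). Whole tissue also holds cells outside the targeted compartment. Brown fat markers followed the depot labels, with Ucp1, the uncoupling protein of brown fat, at 8.21 to 8.99 in BAT and at -5.23 to -1.10 in WAT. Other marker lists moved between WAT samples, as the plot of marker lists by sample shows. The median of 7 B cell markers, each taken as a log2 deviation from its mean over the 15 samples, was 4.97, 4.60 and -1.36 in AdipoKO WAT 1-2, 3 and 4, against 0.38, -0.09, 3.56 and 2.94 in CTL WAT 1 to 4. The adipocyte list of 12 genes was -2.32, -1.64 and 0.78 in the same knockouts, against -0.57 to 0.12 in the controls, and the list of 11 preadipocyte and fibroblast markers was -0.93, -0.86 and 0.57, against 0.13 to 1.65. AdipoKO WAT 1-2 and 3 stood apart from AdipoKO WAT 4 in these lists. The list of 7 mesothelial markers was -1.16, 0.97 and 2.92 in AdipoKO WAT, against 4.65, 4.71, 3.45 and 4.0 in CTL WAT, lower in all 3 knockouts than in any control. Intestinal markers were at 6.38 and 5.18 in CTL WAT 1 and 4, and at -1.58 to 0.67 in the other WAT samples. In BAT, the 11 skeletal muscle markers were at 2.48, 5.29, 5.11 and 2.61 in AdipoKO samples, against 2.44, 3.02, 2.31 and -1.07 in CTL samples, and the 8 endothelial markers at 0.36 to 1.33, against 0.1 to 0.36. Their part in the values below was not tested, except where a value without those samples is given.

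**Figure D1:**
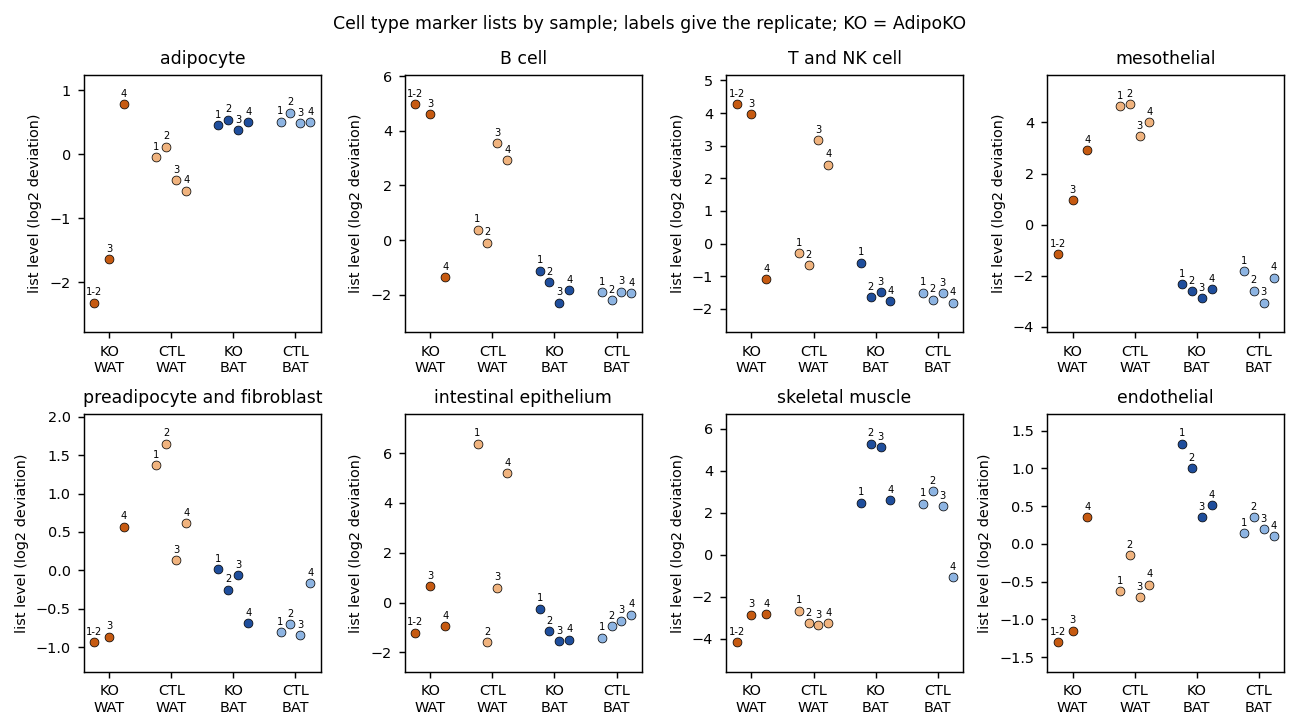
Levels of 8 cell type marker lists (panels) by sample: the y axis is the median over a list of log2 deviations from each gene's mean over the 15 samples, points are samples, and the number above a point is its replicate. The lymphocyte lists are high in AdipoKO WAT 1-2 and 3 and in CTL WAT 3 and 4, and intestinal markers reach 6.38 and 5.18 in CTL WAT 1 and 4.

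Few imprinted genes differed past the threshold between knockout and control mice. In WAT, Rian fell in knockouts, and no other member passed the test: 1 of 39 members was called (2.56%), against 0.0597% of all features (15 of 25107) and 0.0398% called lower. In BAT, Magel2 rose in knockouts and no other member passed: 1 of 39 (2.56%), against 0.0159% of all features (4 of 25107) and 0.00797% called higher. Each member share here rests on 1 gene, in a list chosen with earlier results of these data known. Neither share describes imprinted genes as a set. At an unadjusted p under 0.05 the counts were 7 of 39 in WAT (17.9%, against 17.9% of all features) and 7 of 39 in BAT (17.9%, against 13.1%).

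By group means, the members leaned in opposite directions in the depots. In WAT, 13 of 39 members had a difference above 0 (33.3%, against 66.5% of all features), and the median member difference was -0.22, against 0.24 over all features. The WAT lean was not seen in AdipoKO WAT 4. Its difference from CTL WAT 3, the control on the same slide, was above 0 for every tested member except Rian, Ube3a, Tspan32, Ddc and Inpp5f. The median of all features in that comparison was 0.35. In BAT, 29 of 39 were above 0 (74.4%, against 60.2%), with a median of 0.37, against 0.10. With quantile normalization in place of the percentile, the medians of members and of all features were -0.40 and 0.11 in WAT and 0.33 and 0.03 in BAT. Knockout and control samples did not overlap for 1 member in WAT (2.56%, against 7.70% of all features) and for 12 members in BAT (30.8%, against 18%). Of those 12, 10 were higher in AdipoKO BAT (25.6%, against 9.35%) and 2 lower (5.13%, against 8.62%). The WAT calls turned on single samples. Without AdipoKO WAT 4, 18 of 39 members were called in WAT, 16 of them lower, beside 36.8% of all features called, 4003 lower and 5232 higher. Without AdipoKO WAT 1-2, AdipoKO WAT 3 or CTL WAT 1, each left out in turn, 0 members were called.

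**Figure D2:**
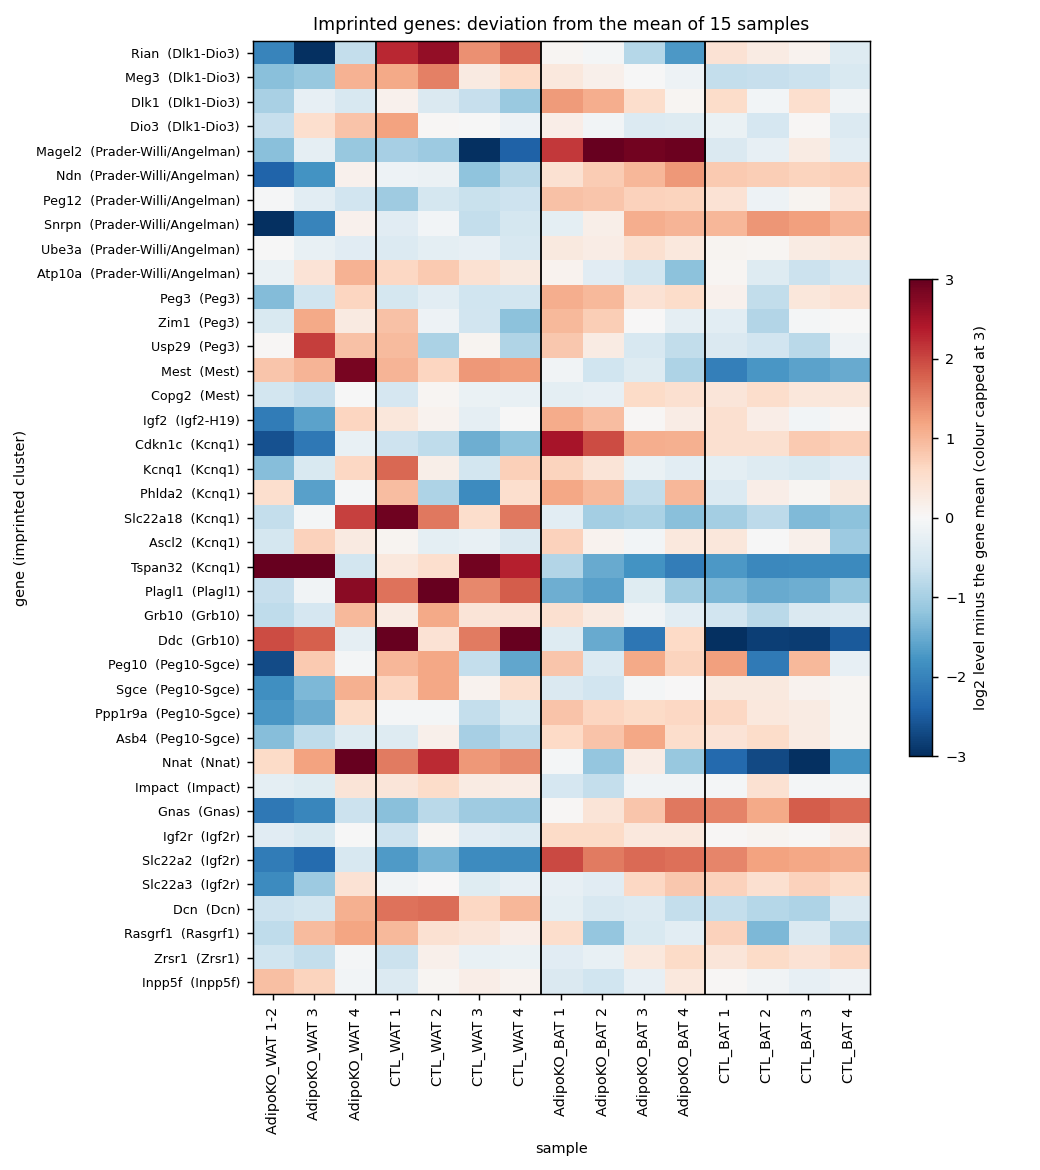
Deviation of each of 39 imprinted genes (rows, with the cluster in parentheses) from its mean over 15 samples (columns), in log2 units with the colour scale capped at 3. Rian is blue in all 3 AdipoKO WAT samples, Magel2 is red in all 4 AdipoKO BAT samples, and AdipoKO WAT 4 differs from AdipoKO WAT 1-2 and 3 in many rows.

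The Dlk1-Dio3 cluster on chromosome 12 holds maternally expressed noncoding RNAs and paternally expressed coding genes. Rian, a maternally expressed noncoding RNA that hosts C/D box small nucleolar RNAs, had log2 levels of -5.5, -6.69 and -4.23 in AdipoKO WAT, against -1.26, -0.89, -2.15 and -1.75 in CTL WAT. All AdipoKO WAT samples lay below all CTL WAT samples, with -4.23 the highest knockout and -2.15 the lowest control. The mean was -5.47 ± 1.23 in AdipoKO WAT and -1.51 ± 0.55 in CTL WAT (SD, n = 3 and 4), a difference of -3.96 ± 0.54 (SE; 95% confidence interval -5.11 to -2.81; adjusted p = 0.0121). Its probe was well above background on 2 of 4 AdipoKO WAT arrays and on 4 of 4 CTL WAT arrays, so no fold is given. The arrays came on 4 slides with 1 array per group, and within the slides the differences between single arrays were -5.43, -4.56, -2.09 and -3.81, below 0 on each. The values -4.56 and -3.81 come from the arrays of AdipoKO WAT 2 and 1, counted here as 1 sample, so they are not separate knockout samples. A group always took the same place on its slides, and the effects of place and group cannot be told apart. Without AdipoKO WAT 1-2 and 3 the difference was -2.72 (adjusted p = 0.151). The mesothelial list was likewise lower in every AdipoKO WAT sample than in every CTL WAT sample, at -1.16, 0.97 and 2.92, against 3.45 to 4.71, and its part in the Rian difference was not tested. Leaving out AdipoKO WAT 1-2, AdipoKO WAT 3 or CTL WAT 1 took the adjusted p to 0.0631, 0.0524 or 0.0506, and with normexp background correction the difference was -1.42 (adjusted p = 0.645).

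In BAT, Rian read -3.46, -3.57, -4.36 and -5.23 in AdipoKO BAT, against -3.08, -3.26, -3.4 and -3.91 in CTL BAT. These groups overlapped, and the difference was -0.74 (adjusted p = 0.569). Meg3, the long noncoding RNA transcribed upstream of Rian, read 1.27, 1.39 and 3.58 in AdipoKO WAT, against 3.67, 4.04, 2.78 and 3.13 in CTL WAT. AdipoKO WAT 4 was within the control range while AdipoKO WAT 1-2 and 3 were below it, and the difference of -1.33 (adjusted p = 0.233) did not pass the test. All 5 Meg3 probes had a difference below 0 in WAT, from -1.35 to -0.42, but the difference was 0.17 without AdipoKO WAT 1-2 and 3, the samples with the low fibroblast list. Meg3 in BAT read 2.83, 2.68, 2.52 and 2.38 in AdipoKO BAT, against 1.82, 1.82, 1.89 and 2.06 in CTL BAT. The BAT groups did not overlap for this probe, with AdipoKO samples higher, yet the difference of 0.71 (adjusted p = 0.505) did not pass and 1 of 5 probes had the opposite sign. Dlk1 read -4.15, -3.42 and -3.66 in AdipoKO WAT, against -3.06, -3.61, -3.86 and -4.29 in CTL WAT, and in BAT -1.91, -2.1, -2.66 and -3.13 in AdipoKO BAT, against -2.63, -3.25, -2.67 and -3.28 in CTL BAT. Its groups overlapped in both depots, with differences of -0.04 (adjusted p = 0.944) in WAT and 0.51 (adjusted p = 0.53) in BAT. Dio3, the deiodinase that inactivates thyroid hormone, differed by -0.05 in WAT and 0.11 in BAT.

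The Prader-Willi/Angelman cluster on chromosome 7 holds paternally expressed genes of the MAGE family, Magel2 and Ndn, beside Peg12, Snrpn and the ubiquitin ligase gene Ube3a. Magel2, whose protein takes part in endosomal recycling, had log2 levels of -1.94, -1.01, -1.16 and -1.1 in AdipoKO BAT, against -4.48, -4.28, -3.81 and -4.36 in CTL BAT. Each AdipoKO BAT sample was above each CTL BAT sample, with -1.94 the lowest knockout and -3.81 the highest control. The mean was -1.3 ± 0.43 in AdipoKO BAT and -4.23 ± 0.29 in CTL BAT (SD, n = 4 each), a difference of 2.93 ± 0.42 (SE; 95% confidence interval 2.02 to 3.84; adjusted p = 0.0487), or 7.63-fold higher in knockouts. The probe was well above background on 4 of 4 arrays of each BAT group, and the slides gave differences of 2.35, 2.80, 3.32 and 3.26. The endothelial list was at 1.33, 1.0, 0.36 and 0.51 in AdipoKO BAT, against 0.14, 0.36, 0.2 and 0.1 in CTL BAT, and its part and that of the muscle list were not tested. The size was steadier than the call: with 1 sample left out at a time it was 2.83 to 3.14, while the adjusted p was 0.0246 to 0.198 and under 0.05 in 4 of 15 cases. The call was lost without AdipoKO WAT 1-2 or 3, CTL WAT 2 or 4, AdipoKO BAT 1, 2 or 3, or any CTL BAT sample. It was also lost with the slide as a block (adjusted p = 0.116) and with normexp background correction (difference 1.78, adjusted p = 0.608).

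In WAT, Magel2 read -5.31, -4.32 and -5.17 in AdipoKO WAT, against -5.04, -5.15, -7.11 and -6.47 in CTL WAT. It was well above background on 2 AdipoKO WAT arrays and 1 CTL WAT array, and the difference was 1.01 (adjusted p = 0.271). None of the 5 tested neighbours of Magel2 passed the test in BAT, and their differences ran from -0.64 to 0.57. Ndn, the gene of necdin, read 0.5, 0.79, 1.04 and 1.33 in AdipoKO BAT, against 0.82, 0.77, 0.71 and 0.76 in CTL BAT. The CTL BAT range lay inside the AdipoKO BAT range, with a difference of 0.15 (adjusted p = 0.935). Ndn in WAT read -2.36, -1.75 and 0.17 in AdipoKO WAT, against -0.12, -0.15, -1.16 and -0.78 in CTL WAT, where AdipoKO WAT 4 was the highest sample and AdipoKO WAT 1-2 the lowest (difference -0.76, adjusted p = 0.352). Peg12, a Frat family gene, read -0.34, -0.4, -0.54 and -0.56 in AdipoKO BAT, against -0.79, -1.37, -1.14 and -0.82 in CTL BAT. AdipoKO BAT samples were above all controls, with a difference of 0.57 (adjusted p = 0.23). In WAT, Peg12 read -1.27, -1.54 and -1.8 in AdipoKO WAT, against -2.28, -1.76, -1.9 and -1.85 in CTL WAT. That WAT difference, 0.41 (adjusted p = 0.284), was of the same sign and did not pass. Snrpn, which encodes the splicing protein SmN, read -0.3, 0.16, 1.06 and 1.0 in AdipoKO BAT, against 0.97, 1.31, 1.2 and 0.99 in CTL BAT, where AdipoKO BAT 1 and 2 were below the controls (difference -0.64, adjusted p = 0.659). In WAT it read -3.05, -2.01 and 0.1 in AdipoKO WAT, against -0.36, -0.1, -0.75 and -0.55 in CTL WAT, with AdipoKO WAT 1-2 and 3 below all other samples (difference -1.21, adjusted p = 0.274). Ube3a read 3.41, 3.34, 3.6 and 3.42 in AdipoKO BAT, against 3.19, 3.17, 3.36 and 3.44 in CTL BAT. In WAT, Ube3a read 3.1, 2.88 and 2.78 in AdipoKO WAT, against 2.7, 2.83, 2.86 and 2.64 in CTL WAT. The groups overlapped in both depots, with differences of 0.15 (adjusted p = 0.718) in BAT and 0.16 (adjusted p = 0.516) in WAT. Atp10a, a phospholipid flippase gene, read -2.48, -2.93, -3.15 and -3.82 in AdipoKO BAT, against -2.55, -2.98, -3.23 and -3.08 in CTL BAT. In WAT, Atp10a read -2.79, -2.18 and -1.55 in AdipoKO WAT, against -1.96, -1.8, -2.13 and -2.3 in CTL WAT. Its groups also overlapped, with differences of -0.14 (adjusted p = 0.91) in BAT and -0.12 (adjusted p = 0.812) in WAT.

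**Figure D3:**
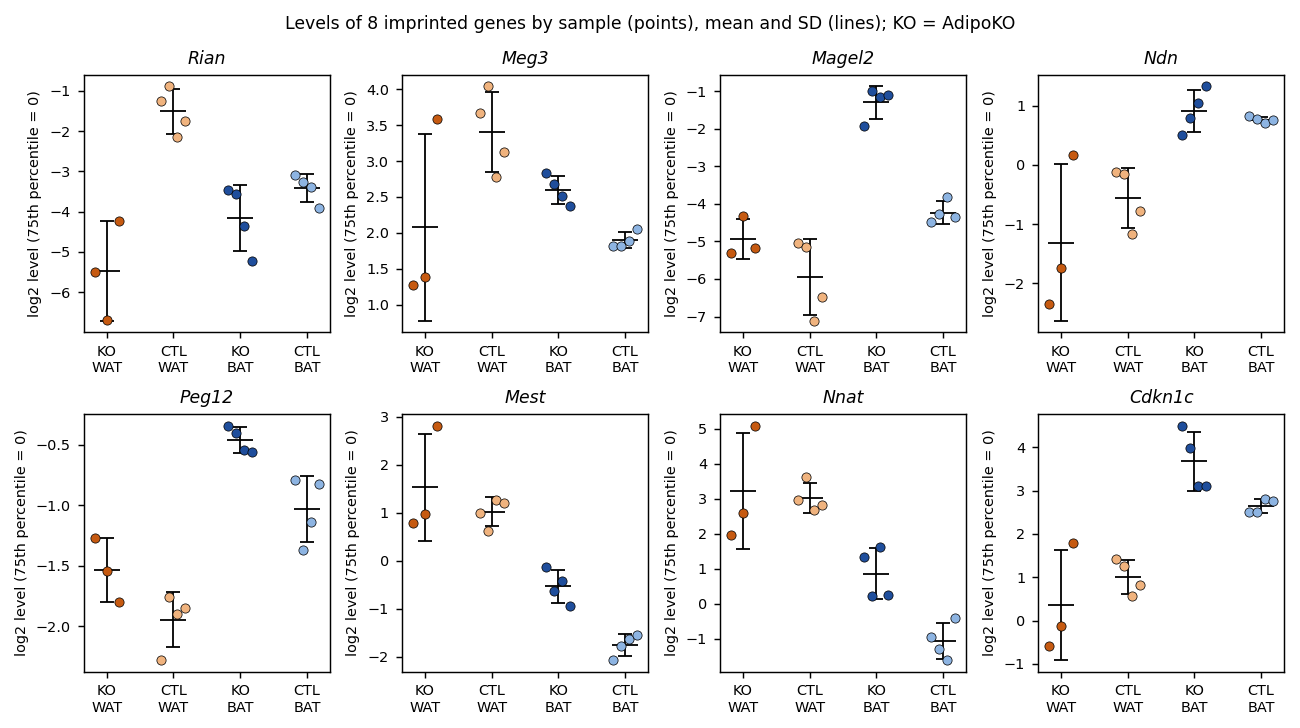
Log2 levels of 8 imprinted genes by group (x axis, AdipoKO left of CTL in each depot), with points for samples and lines for the mean and SD (n = 3 in AdipoKO WAT, 4 in each other group). AdipoKO and CTL samples are separate for Rian in WAT and for Meg3, Magel2, Peg12, Mest, Nnat and Cdkn1c in BAT.

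Mest and Nnat, both paternally expressed, were among the members with separate BAT groups. Mest, an alpha/beta hydrolase fold gene, read -0.13, -0.64, -0.42 and -0.95 in AdipoKO BAT, against -2.07, -1.77, -1.63 and -1.54 in CTL BAT. Every AdipoKO BAT sample was above every CTL BAT sample, with means of -0.53 ± 0.34 in AdipoKO BAT and -1.75 ± 0.23 in CTL BAT (SD, n = 4 each), and the difference of 1.22 (adjusted p = 0.212) did not pass the test. In WAT it read 0.79, 0.98 and 2.82 in AdipoKO WAT, against 1.0, 0.61, 1.27 and 1.21 in CTL WAT, where AdipoKO WAT 4 was the highest and the other samples overlapped (difference 0.51, adjusted p = 0.444). Copg2, a coatomer subunit gene that neighbours Mest, differed by -0.26 in BAT and -0.2 in WAT. Nnat encodes neuronatin, a proteolipid of the endoplasmic reticulum, and read 1.34, 0.23, 1.62 and 0.25 in AdipoKO BAT, against -0.94, -1.3, -1.6 and -0.4 in CTL BAT. Its means were 0.86 ± 0.72 in AdipoKO BAT and -1.06 ± 0.52 in CTL BAT (SD, n = 4 each). The groups were separate, with 0.23 the lowest knockout and -0.40 the highest control, and the difference of 1.92 (adjusted p = 0.209) did not pass. In WAT, Nnat read 1.96, 2.6 and 5.09 in AdipoKO WAT, against 2.96, 3.63, 2.69 and 2.81 in CTL WAT. AdipoKO WAT 4 was again the highest sample and AdipoKO WAT 1-2 and 3 the lowest (difference 0.2, adjusted p = 0.844).

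In the Peg3 cluster, all 3 members had differences above 0 in both depots and none passed. Usp29, a ubiquitin-specific peptidase gene that shares its start region with Peg3, read -2.28, -0.24 and -1.43 in AdipoKO WAT, against -1.37, -3.25, -2.23 and -3.21 in CTL WAT. The groups overlapped, and the difference was 1.2 (adjusted p = 0.269). In BAT, Usp29 read -1.5, -2.07, -2.79 and -3.05 in AdipoKO BAT, against -2.73, -2.87, -3.12 and -2.47 in CTL BAT. That difference was 0.45 (adjusted p = 0.778). Peg3, a zinc finger gene, read -0.47, -0.6, -1.13 and -1.01 in AdipoKO BAT, against -1.43, -2.29, -1.23 and -1.12 in CTL BAT, a difference of 0.72 (adjusted p = 0.413), while its other probe differed by -0.18. In WAT it read -2.87, -2.16 and -0.92 in AdipoKO WAT, against -2.09, -1.87, -2.17 and -2.12 in CTL WAT, and AdipoKO WAT 4 alone was above the controls (difference 0.08, adjusted p = 0.898). Zim1, another zinc finger gene, differed by 0.68 in BAT and 0.59 in WAT. Its probe was well above background on 2 of 4 arrays of CTL WAT and of each BAT group.

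Among the growth genes of chromosome 7, Igf2 encodes insulin-like growth factor II and Cdkn1c the cell cycle inhibitor p57. Igf2 read -2.04, -1.55 and 0.71 in AdipoKO WAT, against 0.39, 0.16, -0.21 and 0.04 in CTL WAT. AdipoKO WAT 1-2 and 3 were below all controls and AdipoKO WAT 4 above them (difference -1.05, adjusted p = 0.281). In BAT, Igf2 read 1.17, 1.0, 0.09 and 0.28 in AdipoKO BAT, against 0.53, 0.25, -0.02 and 0.1 in CTL BAT, and the groups overlapped (difference 0.41, adjusted p = 0.784). Cdkn1c read 4.5, 3.98, 3.11 and 3.1 in AdipoKO BAT, against 2.5, 2.5, 2.81 and 2.75 in CTL BAT. Its AdipoKO BAT samples were all above the CTL BAT samples, AdipoKO BAT 1 and 2 by the most, with a difference of 1.03 (adjusted p = 0.348). In WAT, Cdkn1c read -0.59, -0.13 and 1.8 in AdipoKO WAT, against 1.41, 1.26, 0.56 and 0.81 in CTL WAT, again with AdipoKO WAT 4 above the controls and the other 2 below (difference -0.65, adjusted p = 0.426). All 6 tested members of the Kcnq1 cluster had a difference above 0 in BAT, from 0.21 to 1.03, and none passed; in WAT 2 of 6 were above 0.

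Tspan32 encodes a tetraspanin of blood cells and read 2.72, 2.47 and -2.07 in AdipoKO WAT, against -1.19, -1.01, 1.37 and 0.82 in CTL WAT. Its high samples were the ones with high B and T cell lists, AdipoKO WAT 1-2 and 3 and CTL WAT 3 and 4, and the difference was 1.04 (adjusted p = 0.499). In BAT, Tspan32 read -2.39, -3.03, -3.3 and -3.6 in AdipoKO BAT, against -3.25, -3.46, -3.44 and -3.43 in CTL BAT (difference 0.31, adjusted p = 0.932). Slc22a18, an organic cation transporter-like gene, read -1.14, -0.49 and 1.62 in AdipoKO WAT, against 2.48, 1.15, 0.09 and 1.16 in CTL WAT. CTL WAT 1 was the highest, AdipoKO WAT 1-2 and 3 the lowest, and the difference was -1.23 (adjusted p = 0.282), while the other Slc22a18 probe differed by -0.22. In BAT, Slc22a18 read -0.74, -1.46, -1.38 and -1.68 in AdipoKO BAT, against -1.46, -1.21, -1.75 and -1.66 in CTL BAT (difference 0.21, adjusted p = 0.928). Kcnq1, a potassium channel gene, differed by 0.5 in BAT and -0.89 in WAT. Ascl2, a transcription factor gene, differed by 0.41 in BAT and 0.36 in WAT. Phlda2, a pleckstrin homology domain gene, was well above background on 3 of 4 AdipoKO BAT arrays and on 0 of 4 CTL BAT arrays, with a difference of 0.57 (adjusted p = 0.778).

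Grb10 and its neighbour Ddc lie on chromosome 11. Grb10, the adaptor gene named above, read 1.51, 1.31, 0.92 and 0.71 in AdipoKO BAT, against 0.46, 0.21, 0.59 and 0.61 in CTL BAT. AdipoKO BAT samples were above all CTL BAT samples, by 0.65 (adjusted p = 0.434). In WAT it read 0.27, 0.52 and 1.99 in AdipoKO WAT, against 1.27, 2.17, 1.42 and 1.43 in CTL WAT, and the groups overlapped (difference -0.64, adjusted p = 0.326), with 1 of 3 probes above 0. Ddc, which encodes aromatic amino acid decarboxylase, read -4.77, -5.9, -6.55 and -3.8 in AdipoKO BAT, against -7.45, -7.22, -7.24 and -6.9 in CTL BAT. It was well above background on 1 AdipoKO BAT array and no CTL BAT array, so the separate values have no fold (adjusted p = 0.378). In WAT, Ddc read -2.42, -2.59 and -4.67 in AdipoKO WAT, against 0.65, -3.96, -2.84 and -0.22 in CTL WAT. The 2 highest samples were CTL WAT 1 and 4, which also had the high intestinal lists (difference -1.64, adjusted p = 0.343).

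All 4 members of the Peg10-Sgce cluster on chromosome 6 had a difference below 0 in WAT. Sgce, the gene of epsilon-sarcoglycan, read 1.69, 2.17 and 4.6 in AdipoKO WAT, against 4.18, 4.68, 3.64 and 4.02 in CTL WAT. AdipoKO WAT 1-2 and 3 were below all controls and AdipoKO WAT 4 lay among them. The difference was -1.31 (adjusted p = 0.253), and 0.47 without AdipoKO WAT 1-2 and 3. In BAT, Sgce read 3.1, 2.95, 3.46 and 3.54 in AdipoKO BAT, against 3.82, 3.81, 3.62 and 3.59 in CTL BAT, where all AdipoKO samples were below all CTL samples (difference -0.45, adjusted p = 0.762). Ppp1r9a, which encodes neurabin, read -0.19, 0.08 and 2.12 in AdipoKO WAT, against 1.52, 1.5, 0.84 and 1.12 in CTL WAT. In BAT it read 2.43, 2.22, 2.15 and 2.18 in AdipoKO BAT, against 2.18, 1.88, 1.82 and 1.62 in CTL BAT. The differences were -0.57 (adjusted p = 0.419) in WAT and 0.37 (adjusted p = 0.763) in BAT, neither passed, and 2 of 4 probes had the opposite sign in each. Asb4, an ankyrin repeat and SOCS box gene, read -3.92, -3.39 and -3.02 in AdipoKO WAT, against -3.02, -2.48, -3.62 and -3.4 in CTL WAT, and in BAT -2.02, -1.78, -1.46 and -2.1 in AdipoKO BAT, against -2.22, -2.07, -2.4 and -2.56 in CTL BAT. Its differences were -0.31 (adjusted p = 0.505) in WAT and 0.47 (adjusted p = 0.477) in BAT. Peg10, a retrotransposon-derived gene, differed by -0.61 in WAT and 0.59 in BAT, with levels of -6.80 to -2.88 over the samples. Its probe was well above background on 2 of 4 AdipoKO WAT arrays and on 3 of 4 arrays of each other group.

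Dcn and Plagl1, both on chromosome 10, were lower in AdipoKO WAT 1-2 and 3 than in every control. Dcn encodes decorin, a matrix proteoglycan of fibroblasts, and read 5.58, 5.64 and 7.28 in AdipoKO WAT, against 7.82, 7.88, 6.83 and 7.19 in CTL WAT. AdipoKO WAT 4 was within the control range, as was its fibroblast list, and the difference was -1.27 (adjusted p = 0.21). In BAT, Dcn read 5.91, 5.71, 5.8 and 5.49 in AdipoKO BAT, against 5.49, 5.35, 5.28 and 5.77 in CTL BAT, with overlap (difference 0.26, adjusted p = 0.829). Plagl1, a zinc finger transcription factor gene, read -0.68, -0.09 and 2.73 in AdipoKO WAT, against 1.65, 3.2, 1.46 and 1.82 in CTL WAT, a difference of -1.38 (adjusted p = 0.28). In BAT it read -1.45, -1.61, -0.35 and -1.02 in AdipoKO BAT, against -1.33, -1.5, -1.45 and -1.11 in CTL BAT (difference 0.24, adjusted p = 0.925). Gnas, the stimulatory G protein gene, read 3.27, 3.62, 4.06 and 4.82 in AdipoKO BAT, against 4.72, 4.37, 5.04 and 4.93 in CTL BAT. AdipoKO BAT 1 to 3 were below every control and AdipoKO BAT 4 was not, with a difference of -0.82 (adjusted p = 0.342). In WAT it read 1.1, 1.29 and 2.58 in AdipoKO WAT, against 1.98, 2.42, 2.17 and 2.14 in CTL WAT (difference -0.52, adjusted p = 0.417).

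In the Igf2r cluster of chromosome 17, Igf2r, the receptor gene whose product clears IGF2, read 3.15, 3.14, 2.89 and 2.88 in AdipoKO BAT, against 2.6, 2.64, 2.59 and 2.77 in CTL BAT. All AdipoKO BAT samples were above all CTL BAT samples (difference 0.36, adjusted p = 0.391). In WAT, Igf2r read 2.22, 2.11 and 2.57 in AdipoKO WAT, against 1.95, 2.63, 2.23 and 2.15 in CTL WAT (difference 0.06, adjusted p = 0.842). Slc22a2, an organic cation transporter gene, read -0.33, -0.74, -0.59 and -0.63 in AdipoKO BAT, against -0.83, -1.1, -1.13 and -1.21 in CTL BAT, also without overlap (difference 0.49, adjusted p = 0.548). In WAT it read -4.4, -4.61 and -2.78 in AdipoKO WAT, against -3.99, -3.7, -4.17 and -4.22 in CTL WAT, where AdipoKO WAT 4 was the highest sample (difference 0.09, adjusted p = 0.872). Slc22a3, a related transporter gene, differed by -0.39 in BAT and -0.68 in WAT. Impact, whose product inhibits Gcn2 activation, read 1.59, 1.37, 1.98 and 1.99 in AdipoKO BAT, against 2.04, 2.54, 2.04 and 2.03 in CTL BAT, with all AdipoKO samples below all CTL samples (difference -0.43, adjusted p = 0.416). In WAT, Impact read 1.81, 1.73 and 2.48 in AdipoKO WAT, against 2.46, 2.65, 2.33 and 2.3 in CTL WAT (difference -0.43, adjusted p = 0.313). Zrsr1, a splicing factor gene, read 0.7, 0.56 and 1.23 in AdipoKO WAT, against 0.64, 1.44, 1.05 and 1.08 in CTL WAT, and in BAT 0.96, 1.06, 1.61 and 1.86 in AdipoKO BAT, against 1.64, 1.86, 1.73 and 1.91 in CTL BAT. Its differences were -0.22 (adjusted p = 0.593) in WAT and -0.41 (adjusted p = 0.49) in BAT. Inpp5f, an inositol phosphatase gene, differed by 0.5 in WAT and -0.12 in BAT, and Rasgrf1, a Ras exchange factor gene, by -0.04 and 0.14. The Rasgrf1 probe was well above background on 1 of 4 arrays of each BAT group.

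**Figure D4:**
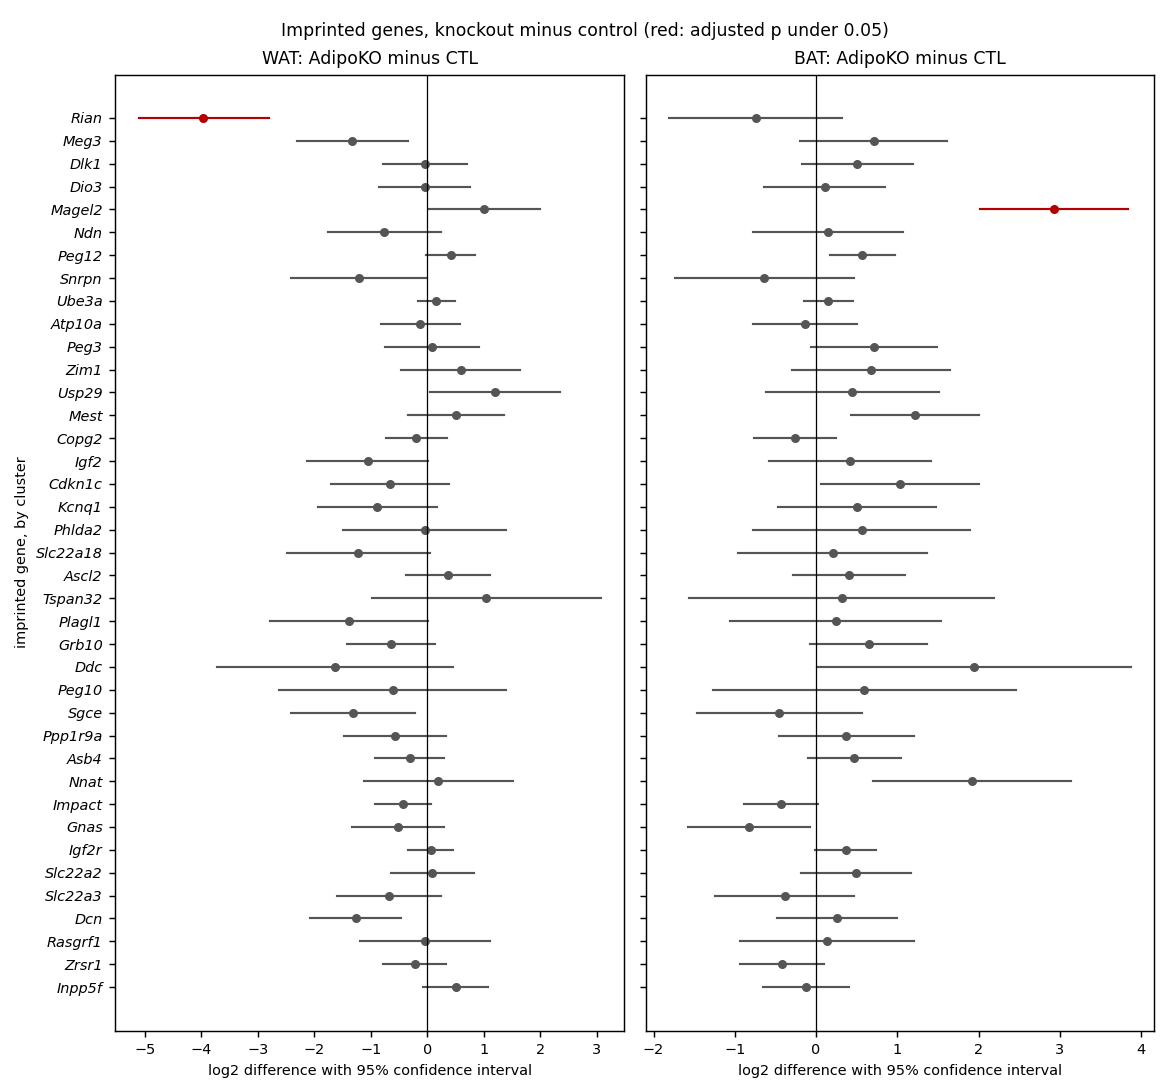
Log2 differences, AdipoKO minus CTL, of 39 imprinted genes (rows, by cluster) in WAT (left) and BAT (right), with 95% confidence intervals as lines and red for an adjusted p under 0.05. Rian at -3.96 in WAT and Magel2 at 2.93 in BAT are the red points.

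Grouped by the allele known to be transcribed, 8 of 10 tested maternally expressed members had a difference below 0 in WAT, with a median of -0.65, and 9 of 10 were above 0 in BAT, with a median of 0.53. Of 17 tested paternally expressed members, 11 were below 0 in WAT (median -0.05) and 13 above 0 in BAT (median 0.41). Of all features, 66.5% were above 0 in WAT (median 0.24) and 60.2% in BAT (median 0.10). The WAT lean was not seen in AdipoKO WAT 4. Its difference from CTL WAT 3, on the same slide, was below 0 for Rian alone among these maternally and paternally expressed members. A link of the differences to the allele was not tested. The other members tested are known to be imprinted in some tissues only, 10 from the maternal and 2 from the paternal allele. Rian was the maternally expressed member called, and Magel2 the paternally expressed one.

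The difference between the depots' knockout effects was tested by the interaction, the BAT difference minus the WAT difference. No member passed (0 of 39, against 0.00398% of all features), and 8 of 39 had an unadjusted p under 0.05 (20.5%, against 10.4%). The sign was positive for 31 of 39 members (79.5%, against 39.8%). That count takes in the WAT differences, whose lean below 0 was not seen in AdipoKO WAT 4. Rian had an interaction of 3.22 (adjusted p = 0.347), Meg3 of 2.03 (adjusted p = 0.373), Magel2 of 1.92 (adjusted p = 0.373) and Dcn of 1.52 (adjusted p = 0.388). Ddc had the largest estimate among the 39, 3.58 (adjusted p = 0.412), with 1 AdipoKO BAT array and no CTL BAT array well above background. The changes of Rian in WAT and of Magel2 in BAT were thus not shown to differ between the depots. Without AdipoKO WAT 4, 14 of 39 members passed the interaction test, beside 4055 of all 25107 features.

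The depots themselves differed for many imprinted genes. In AdipoKO mice, BAT minus WAT passed the test for 18 of 39 members (46.2%, against 30.6% of all features), 14 of them higher in BAT (35.9%, against 16.7%) and 4 lower (10.3%, against 13.9%). In CTL mice it passed for 21 of 39 (53.8%, against 33.4%), 10 higher (25.6%, against 19.1%) and 11 lower (28.2%, against 14.3%). The AdipoKO count was 11 without AdipoKO WAT 3 and 9 when only the groups compared entered the fit, where 4497 and 2990 of all features were called, against 7683 with all samples. The CTL count was 12 without CTL WAT 1 and 4, where 5272 of all features were called, against 8381. The 2 depot comparisons share no samples with each other, but each shares samples with both knockout comparisons.

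Slc22a2 and Gnas were higher in BAT in both genotypes. Slc22a2 averaged -0.57 ± 0.18 in AdipoKO BAT and -3.93 ± 1.0 in AdipoKO WAT, a difference of 3.36 (adjusted p = 1.4e-05), and -1.07 ± 0.17 in CTL BAT and -4.02 ± 0.23 in CTL WAT, a difference of 2.96 (adjusted p = 1.25e-05). Gnas averaged 3.94 ± 0.67 in AdipoKO BAT and 1.66 ± 0.81 in AdipoKO WAT, a difference of 2.29 (adjusted p = 0.000635), and 4.76 ± 0.3 in CTL BAT and 2.18 ± 0.18 in CTL WAT, a difference of 2.59 (adjusted p = 9.07e-05). These are 4.88-fold and 6.01-fold for the gene that links adrenergic receptors to cyclic AMP. Cdkn1c was higher in BAT by 3.31 (adjusted p = 0.000252) in AdipoKO mice and 1.63 (adjusted p = 0.0129) in CTL mice. A total of 5 members of the Prader-Willi/Angelman cluster were also higher in BAT in both genotypes. Magel2 was higher by 3.63 (adjusted p = 7.73e-05) in AdipoKO mice and by 1.71 (adjusted p = 0.0066) in CTL mice, where its probe was well above background on 2 of 4 AdipoKO WAT and 1 of 4 CTL WAT arrays. With normexp background correction the differences were 1.60 (adjusted p = 0.0643) and 0.17 (adjusted p = 0.885). Ndn was higher by 2.23 (adjusted p = 0.0029) and 1.32 (adjusted p = 0.0292), Snrpn by 2.13 (adjusted p = 0.0106) and 1.55 (adjusted p = 0.0314), and Peg12 by 1.08 (adjusted p = 0.0014) and 0.92 (adjusted p = 0.00176), in AdipoKO mice and in CTL mice in that order. Without AdipoKO WAT 1-2 and 3, the AdipoKO differences of Ndn and Snrpn were 0.74 and 0.37. With 1 sample left out at a time, the CTL calls of Ndn and Snrpn held in 9 and 8 of 15 cases. Ube3a was higher by 0.52 (adjusted p = 0.0195) in AdipoKO mice and 0.53 (adjusted p = 0.0103) in CTL mice, but by 0.14 and 0.16 with quantile normalization, where neither passed. Asb4 was higher by 1.6 (adjusted p = 0.00107) in AdipoKO mice and 0.82 (adjusted p = 0.0286) in CTL mice. The CTL samples of the depots overlapped for Asb4, with CTL BAT 4 at -2.56 and CTL WAT 2 at -2.48. Its CTL call held in 10 of 15 cases with 1 sample left out at a time.

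Nnat, Mest, Tspan32 and Atp10a were lower in BAT in both genotypes. Nnat averaged 0.86 ± 0.72 in AdipoKO BAT and 3.22 ± 1.66 in AdipoKO WAT, a difference of -2.36 (adjusted p = 0.0104), and -1.06 ± 0.52 in CTL BAT and 3.02 ± 0.42 in CTL WAT, a difference of -4.08 (adjusted p = 0.000104). The CTL difference is 17-fold. Mest was lower in BAT by 4.18-fold in AdipoKO mice, with a difference of -2.06 (adjusted p = 0.00174), and by 6.86-fold in CTL mice, with -2.78 (adjusted p = 7.06e-05). Tspan32 differed by -4.12 (adjusted p = 0.00518) in AdipoKO mice and -3.39 (adjusted p = 0.00844) in CTL mice, and WAT samples with high lymphocyte lists held its highest values. Without AdipoKO WAT 1-2 and 3 the AdipoKO difference was -1.01 (adjusted p = 0.551). Atp10a differed by -0.92 (adjusted p = 0.0451) and -0.91 (adjusted p = 0.0314), in AdipoKO mice and in CTL mice in that order. With 1 sample left out at a time, its call held in 3 of 15 cases in AdipoKO mice and in 9 of 15 in CTL mice.

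Several members passed the depot test in 1 genotype, which does not show a difference between genotypes, since no interaction passed. Plagl1 differed by -1.76 (adjusted p = 0.0557) in AdipoKO mice and by -3.38 (adjusted p = 0.00072) in CTL mice, where it was 10.4-fold lower in BAT. Slc22a18 differed by -1.31 (adjusted p = 0.109) in AdipoKO mice and -2.74 (adjusted p = 0.00154) in CTL mice, while its other probe differed by -0.46 and -0.63. Dcn differed by -0.44 (adjusted p = 0.429) in AdipoKO mice and -1.96 (adjusted p = 0.00064) in CTL mice. Rian differed by 1.32 (adjusted p = 0.0787) in AdipoKO mice and -1.9 (adjusted p = 0.00911) in CTL mice. Meg3 was lower in CTL BAT than in CTL WAT, with a difference of -1.51 (adjusted p = 0.0132), and so was Grb10, with -1.11 (adjusted p = 0.021), although the Grb10 difference was -0.60 (adjusted p = 0.299) as the median over its probes. Ddc was at least 10.2-fold lower in CTL BAT, where it was not well above background, than in CTL WAT (adjusted p = 0.000319). That bound takes in CTL WAT 1 and 4, at 0.65 and -0.22, against -3.96 and -2.84 in CTL WAT 2 and 3. Without CTL WAT 1 and 4 the difference was -3.80 (adjusted p = 0.00404). That value is not a bound, since it uses CTL BAT levels that were not well above background. The other Ddc probe differed by -2.1 with all samples. Zrsr1 was higher in CTL BAT by 0.73 (adjusted p = 0.0296), and its other probe differed by -0.14. In AdipoKO mice, Dlk1 was higher in BAT by 1.29 (adjusted p = 0.0116), Igf2 by 1.59 (adjusted p = 0.0272), Ppp1r9a by 1.57 (adjusted p = 0.012), Peg3 by 1.18 (adjusted p = 0.0335) and Igf2r by 0.71 (adjusted p = 0.011). Without AdipoKO WAT 1-2 and 3 the differences of Igf2, Peg3 and Ppp1r9a were -0.07, 0.12 and 0.12, and the 4 Ppp1r9a probes ran from -0.98 to 1.57 with all samples.

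**Figure D5:**
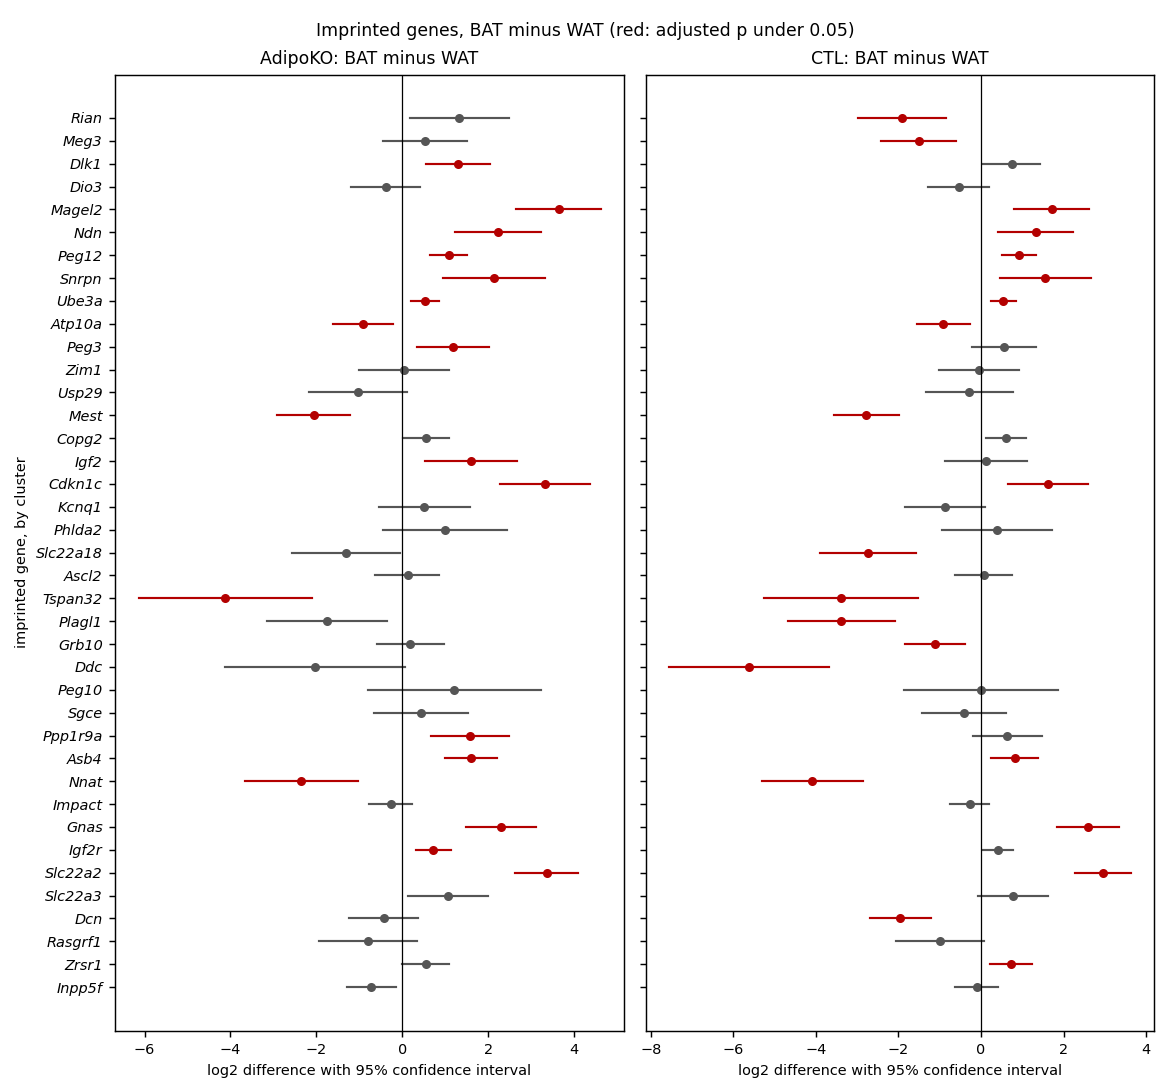
Log2 differences, BAT minus WAT, of 39 imprinted genes (rows, by cluster) in AdipoKO mice (left) and CTL mice (right), with 95% confidence intervals as lines and red for an adjusted p under 0.05. Slc22a2 and Gnas lie to the right of 0 and Nnat and Mest to the left in both panels.

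A further list of 37 imprinted genes outside the 43 was read for comparison, of which 29 were tested. In WAT, 13 of the 29 had a difference above 0 (median -0.22), against 66.5% of all features. In BAT 14 of the 29 did (median 0), against 60.2%, so the BAT lean of the 39 members was not seen in this list. Of the 29, 0 passed limma's test in either knockout comparison or in the interaction. At an unadjusted p under 0.05 there were 7 in WAT, 5 in BAT and 3 in the interaction. The shares of all features were 17.9%, 13.1% and 10.4%. Between depots, 8 passed as higher and 2 as lower in BAT of AdipoKO mice, against 16.7% and 13.9% of all features. In BAT of CTL mice 6 passed as higher and 2 as lower, against 19.1% and 14.3%. Ampd3, an AMP deaminase gene, was higher in BAT by 2.21 in AdipoKO mice and 2.91 in CTL mice (adjusted p = 0.00011 and 4.11e-06), and Cobl, an actin nucleator gene, differed, BAT minus WAT, by -3.02 and -4.63 (adjusted p = 0.000829 and 1.02e-05). Cobl levels in BAT were low, from -6.32 to -4.66. In CTL WAT 1 and 4, which had the high intestinal lists, Cobl read 0.48 and -0.55, against -0.85 and -1.96 in CTL WAT 2 and 3. Genes that maintain imprints, such as the DNA methyltransferase Dnmt1, Uhrf1, Zfp57 and Trim28, gave 21 tested genes of 22. Of these, 0 passed in either knockout comparison. At an unadjusted p under 0.05 there were 8 of 21 in WAT and 5 of 21 in BAT, against 17.9% and 13.1% of all features. In WAT 19 of 21 had a difference above 0 (median 0.54), against 66.5% of all features, and in BAT 14 of 21 (median 0.12), against 60.2%. Of the 21, 0 passed as higher and 4 as lower in BAT of AdipoKO mice, against 16.7% and 13.9% of all features. For CTL mice 2 passed as higher and 3 as lower in BAT, against 19.1% and 14.3%. Dnmt1 differed, BAT minus WAT, by -1.68 in AdipoKO mice and -1.3 in CTL mice (adjusted p = 0.011 and 0.0245), and its highest levels, 1.61 and 1.49, were in AdipoKO WAT 1-2 and 3, where the lymphocyte lists were high.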

How the data were processed

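Total RNA (500 ng, column-extracted, per the labels) was labelled with Cy3 and hybridised to 16 Agilent arrays. Per the file headers, images were read with Agilent Feature Extraction 12.0.0.7, whose deposited processed signal is an intensity, background-subtracted, with no scaling between arrays. Flags per spot, also deposited, hold other values, 0 or 1. The values deposited for the series are the same intensity for all 41174 probes within a relative tolerance of 1e-04.

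Outlier spots were left out and spots of a probe averaged. Levels are log2 processed signals scaled to each array's 75th percentile, which was 298 to 1030. In BAT this percentile was lower on every AdipoKO array (298, 320, 497 and 486) than on every CTL array (501 to 561). Its part in the BAT differences was not tested beyond the alternatives named below. An array had 66.7% to 83.6% of its probes well above background, which limits the precision of dim probes. Probes well above background on at least 3 of 4 arrays of 1 group were kept. Accessions matched a RefSeq gene table (GRCm38.p6) for 28223 of 41174 probes, and the probe of highest mean level stood for a gene. AdipoKO WAT 1 and 2 were averaged, after the arrays were seen: over 7554 bright probes their log2 values differed with an SD of 0.0864, where spot noise gave 0.0879 and an SD of at least 0.212 was found in the other 119 pairs.

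One mean per group was fitted to the 15 samples with limma 3.58.1 (R 4.3.3, the R package data.table, version 1.17.8; 11 residual and 2.65 prior degrees of freedom), two-sided, with Benjamini-Hochberg adjustment, tested on simulated data. Biological replicates are named by the study's design. Full values are given for members past the threshold in any of 5 comparisons, members whose knockout and control samples did not overlap, and the 6 members of smallest unadjusted p in each knockout comparison. From other lists, up to 3 genes past the threshold per comparison could be named. Members and lists were chosen with earlier results of these data known. Alternatives changed the background correction (normexp with an offset of 50), scaling, filter, probe choice, blocks and samples. Figures were drawn with matplotlib 3.10.9. Promoter sequences are RefSeq's, and allele-specific signal was not analysed here.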

Additional observations from a re-analysis of the deposited data

Results flagged for a closer look

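Among 117 groups of 4 samples (39 members in 3 groups), 5 held a sample far from the other 3, by a test that chance passes in about 1 in 20 groups. Magel2 was at -1.94 in AdipoKO BAT 1, below -1.16 to -1.01 in the other AdipoKO BAT samples and above every CTL BAT sample. Phlda2, a pleckstrin homology domain gene, was at -5.68 in AdipoKO BAT 3, against -3.97 to -3.80 in the others of its group. Dio3 was at -1.12 in CTL WAT 1, against -2.47 to -2.29. Tspan32 was at -3.25 in CTL BAT 1, against -3.46 to -3.43, and Impact at 2.54 in CTL BAT 2, against 2.03 to 2.04. No member passed the test of a difference between the depots' knockout effects.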

How the results depend on the processing

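The 1 member called in WAT, Rian, was lost (0 members called) with normexp background correction, with only the groups compared in the fit (difference -3.96, adjusted p = 0.583), without CTL WAT 1 and 4 (adjusted p = 0.201) and, in an alternative chosen after seeing the data, without AdipoKO WAT 1-2 and 3. Leaving out 1 sample at a time gave 0 to 18 members in WAT, 0 to 2 in BAT and 0 to 14 in the interaction. The 1 member called in BAT, Magel2, was lost (0 called) with normexp, with no filter on dim probes (adjusted p = 0.0795), with the slide as a block, without CTL WAT 1 and 4, and without AdipoKO BAT 1 and 2. Between depots, the 18 members called in AdipoKO mice were 10 with normexp, 9 with only the groups compared, 11 without AdipoKO WAT 1-2 and 3, and 11 to 25 with 1 sample left out. The 21 called in CTL mice were 12 without CTL WAT 1 and 4 and 15 to 25 with 1 sample left out. Differences turned sign without AdipoKO WAT 1-2 and 3 for Meg3 in WAT (0.17), Sgce in WAT (0.47) and Igf2 between depots in AdipoKO mice (-0.07). Beyond the fewer samples in a fit, the cause was not tested. The other values recomputed for named members kept their direction. The call was lost in 24 recomputed knockout values and 123 depot values and gained in 4 knockout values. Same-numbered AdipoKO and CTL samples of a depot did not deviate together (correlations -0.473 to 0.0814 in WAT and -0.0409 to 0.184 in BAT). Whether WAT and BAT samples of the same number came from the same mouse was not tested, and the fit takes them as unpaired. With the replicate block Rian in WAT was -3.85 (adjusted p = 0.0343) and Magel2 in BAT 2.93 (adjusted p = 0.178, 0 members called). Probes near background limit Rian, Magel2, Phlda2 and Peg10 in WAT, Ddc, Phlda2 and Rasgrf1 in BAT, and Zim1 in both depots.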
